A study of Mus musculus with 15 samples.

Results

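The 10 genes followed here encode the cytokines and chemokines by which CD8+ T cells act on other cells: Ltb, Lta, Tnf, Ifng, Il2, Il10, Ccl3, Ccl4, Ccl5 and Xcl1. They were chosen by name, and each symbol was matched to 1 of the 55536 gene identifiers of GENCODE release M21 in the count table. The series asked what costimulation adds to antigen in CD8+ T cells, and 2 groups of 5 libraries were compared. Both groups consisted of T cells of OT-I mice, which carry a transgenic receptor for the SIINFEKL peptide of ovalbumin, on a Rag1-/- or Rag2-/- background per the study's methods, transferred into C57BL/6J hosts that kept their own lymphocytes. The Ag group received the peptide with rat IgG. The Ag+Costim group received the peptide with agonist antibodies to CD134 (OX40, clone OX-86) and CD137 (4-1BB, clone 3H3). Transferred CD8+ cells were sorted from spleen and lymph nodes at day 4 by the labels, and the study's methods describe a slightly earlier collection. Animals were of both sexes, and the age of each was not given in the sources used here. The 5 Naive libraries in the labels were not analysed here. Restimulation is described for secretion assays and not for these RNA samples. All transferred cells share 1 receptor specificity and met 1 peptide. In bulk RNA a lower level per cell and fewer expressing cells cannot be told apart.

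Cytokines and chemokines are secreted or membrane-bound ligands, and each acts through receptors on neighbouring cells or on the T cell itself. Lymphotoxins and TNF belong to 1 ligand family and drive inflammation and lymphoid organisation, interferon gamma arms macrophages and raises antigen presentation, and CC and XC chemokines attract leukocytes. Activated CD8+ T cells are known for rapid bursts of several of these transcripts, which are short-lived in part because of AU-rich elements in their 3′ untranslated regions (UTRs), where RNA-binding proteins attach.

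Ltb dominated the transcripts of this family in both groups, and no member differed between Ag and Ag+Costim past the threshold of the main test. The spread between libraries was wider in Ag than in Ag+Costim for 9 of the 10 members, as for 95.6% of the 13183 tested genes at 1 CPM or more. Ag replicates 1 and 4 held more Ccl4, Xcl1, Ccl3, Lta and Ltb than every other library of either group. The share of all genes with this order was not counted, so the order cannot be read as particular to these genes. These libraries also differed in the number of genes with a count, 48058 and 40441, against 51778 in Ag replicate 3 and 20714 to 30340 elsewhere. The 2 members with the highest level per length, Ltb and Ccl5, were the ones without an AU-rich pentamer in the 3′ UTR, which is short in both (156 and 199 bases).

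The members lie on 5 chromosomes in mm10. Ltb (ENSMUSG00000024399.5, chr17:35194439-35196320, + strand), Tnf (ENSMUSG00000024401.14, chr17:35199381-35202007, - strand) and Lta (ENSMUSG00000024402.5, chr17:35203165-35205351, - strand) form 1 block, with 3060 bases between Ltb and Tnf and 1157 bases between Tnf and Lta. Ccl5 (ENSMUSG00000035042.2, chr11:83525778-83530518, - strand), Ccl3 (ENSMUSG00000000982.5, chr11:83647844-83649355, - strand) and Ccl4 (ENSMUSG00000018930.3, chr11:83662584-83664683, + strand) lie in the chemokine cluster of chromosome 11, Ccl3 and Ccl4 being 13228 bases apart. Ifng (ENSMUSG00000055170.4, chr10:118441046-118445892, + strand), Il2 (ENSMUSG00000027720.7, chr3:37120523-37125959, - strand), Il10 (ENSMUSG00000016529.5, chr1:131019845-131024974, + strand) and Xcl1 (ENSMUSG00000026573.7, chr1:164931644-164935527, - strand) stand alone. The longest stretch of identical bases between the transcripts of any pair of members was 16 bases, between Tnf and Lta. Of the 10 members 5 overlap another annotated gene, and the counting is not stated to use strand: Ifng overlaps Gm49751, Il2 overlaps Adad1, Xcl1 overlaps Gm20743, Lta overlaps Mir6974 and Ltb overlaps Mir6973a. The highest level of any of these partners was 4.13 CPM, for Gm20743. Adad1 reached 0.731 CPM, against a range of 0.934 to 2.03 CPM for Il2. Gm49751 reached 1.34 CPM, against a range of 4.08 to 10.99 CPM for Ifng. The part of these partners in the levels of the members was not tested.

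Sequences are shown because the 3′ UTR sets the members apart from each other. Each line gives the stretch of up to 30 bases of the 3′ UTR that holds the most ATTTA pentamers (AUUUA in RNA, the core of an AU-rich element), 5′ to 3′ on the strand of the gene, with the pentamers in capitals, from GENCODE M21 transcripts. All lie within the annotated 3′ UTR.
Tnf (chr17:35199678-35199707, - strand): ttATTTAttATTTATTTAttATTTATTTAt
Il2 (chr3:37121040-37121069, - strand): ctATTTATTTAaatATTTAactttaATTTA
Ifng (chr10:118445333-118445362, + strand): ctATTTAttaatATTTAaaactATTTAtat
Ccl3 (chr11:83648067-83648096, - strand): ttATTTAATTTAatcctattggtttaatac
Lta (chr17:35203385-35203414, - strand): ttATTTATTTAtagagaatagaaagagggg
Ccl4 (chr11:83664496-83664525, + strand): taATTTAaatctctgtgtagactttgtttt
Xcl1 (chr1:164931644-164931660, - strand): atATTTAttattgatga
The stretch of Tnf holds 5 overlapping or adjoining pentamers, that of Il2 holds 4, that of Ifng 3, those of Ccl3 and Lta 2 each, and those of Ccl4 and Xcl1 1 each. Il10 also has 1 pentamer in its densest stretch, with 6 spread over its 3′ UTR.

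Over the whole 3′ UTR of the most abundant coding transcript, Tnf held 8 pentamers in 764 bases, Il2 held 7 in 581 bases, Ifng 6 in 631 bases, Il10 6 in 706 bases, Ccl3 5 in 409 bases, Lta 3 in 572 bases, Ccl4 2 in 302 bases and Xcl1 1 in 141 bases. Ltb, with a 3′ UTR of 156 bases, and Ccl5, with 199 bases, held 0. Expressed per 1000 bases, the density was 12.2 in Ccl3, 12.05 in Il2, 10.5 in Tnf, 9.51 in Ifng, 8.50 in Il10, 7.09 in Xcl1, 6.62 in Ccl4 and 5.25 in Lta. The median over the 14698 genes with a 3′ UTR of 100 bases or more was 1.33, and 69.1% of those genes held at least 1 pentamer. The lowest of the 8 nonzero densities, that of Lta, was above that of 94.1% of the genes examined, although 1 match weighs heavily in a 3′ UTR as short as that of Xcl1. The longer nonamer ttatttatt, known as a destabilising form of the element, occurred 5 times in Tnf, 1 time in Il2 and 1 time in Lta, and in 7.83% of the genes examined. A match of letters is a description and not a measured binding site.

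Promoters were compared because several members moved together between libraries. RefSeq promoters (GRCm38.p6, 250 bases before to 50 after the start) matched 7 members, Ifng, Tnf, Il2, Lta, Ltb, Ccl3 and Xcl1. Il10, Ccl4 and Ccl5 were not matched. Letters were searched on both strands. TATAAA, the letters of the TATA box, was in the promoters of Ifng, Tnf, Il2 and Lta and in 13.6% of 32851 promoters. It was counted at any position, and in Lta it lies well upstream of the start. GGAAA, the core of NFAT and kB sites, was in all 7 and in 61.3% of promoters. TGANTCA, an AP-1 motif, was in 0 of the 7 and in 7.81% of promoters. GGANTTTCC, a form of the kB site that contains the GGAAA core on the other strand, was in Ltb and in 1.25% of promoters. The Ltb promoter (chr17:35194257-35194556, + strand) is shown because Ltb was the most abundant member and the one with this match, which is in capitals and lies on the opposite strand. Its window follows the RefSeq start, which lies upstream of the start favoured in the authors' splicing values described below.
Ltb promoter: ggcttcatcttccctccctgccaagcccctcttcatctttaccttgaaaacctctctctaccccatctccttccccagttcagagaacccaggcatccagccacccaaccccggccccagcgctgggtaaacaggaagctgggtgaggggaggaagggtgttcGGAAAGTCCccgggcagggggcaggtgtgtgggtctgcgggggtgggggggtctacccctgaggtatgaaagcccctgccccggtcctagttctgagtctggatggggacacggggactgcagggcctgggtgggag

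The libraries held between 59.6 M and 449.4 M estimated counts in Ag and between 332.3 M and 639.1 M in Ag+Costim, the lowest total being that of Ag replicate 3. Genes with a count numbered 20714 to 51778 in Ag and 28727 to 30340 in Ag+Costim. The labelled cell type held, with the summed level of 6 CD8+ T cell markers (Cd8a, Cd8b1, Cd3d, Cd3e, Cd3g and Cd247) at 2684 to 5280 CPM in Ag and 3469 to 4331 CPM in Ag+Costim. Each set of markers of other cells summed to less than the CD8+ T cell set in every library, but the sums were unequal: 4 CD4+ T cell markers summed to between 3.73 and 26.3 CPM in Ag and between 3.15 and 8.18 CPM in Ag+Costim, 6 B cell markers to 18.5 to 304 CPM and 14.6 to 32.5 CPM, and 5 erythroid markers to 14.7 to 1099 CPM and 3.79 to 39.3 CPM. The 4 NK cell markers summed to 2.91 to 23.6 CPM in Ag and 0.551 to 2.399 CPM in Ag+Costim, 5 dendritic cell markers to 1.32 to 21.9 CPM and 2.92 to 4.75 CPM, and 8 myeloid markers to 51.5 to 149 CPM and 83.2 to 180.2 CPM. The highest B cell, erythroid, NK and dendritic sums were all in Ag replicate 3, where the erythroid sum of 1099 CPM stood beside a CD8+ T cell sum of 2684 CPM. The B cell markers Pax5 and Ebf1, the dendritic markers Flt3, Clec9a and Siglech, and the NK markers Ncr1, Klra8 and Klra4 were at 0 in at least 1 library. The part of such cells in the levels below was not tested except where a value is given.

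To rank the members, levels were set on a scale per length (TPM, transcript counts divided by transcript length and scaled to a common total). Ltb stood first in every library, at 851 ± 499 TPM in Ag and 511 ± 111 TPM in Ag+Costim (SD, n = 5 per group), above 99.04% of the genes tested. Its share of the summed TPM of the 10 members was 66.1 ± 4.83% over the 10 libraries (SD) and never lay outside 59.5% to 72.7%. Ccl5 came next, with 186 ± 27.8 TPM in Ag and 131 ± 65.02 TPM in Ag+Costim, followed by Xcl1 with 155 ± 115 and 70.4 ± 19.0 TPM. The ranges of Ccl5 and Xcl1 overlapped, and Ccl5 was the higher in 7 of 10 libraries.

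A middle tier followed. In Ag+Costim it held Ccl4 (9.27 ± 1.33 TPM), Lta (8.50 ± 1.52), Tnf (8.02 ± 1.52), Ccl3 (7.45 ± 1.36) and Ifng (7.16 ± 1.05), whose ranges overlapped from each to the next. In Ag the same genes spread further, from Ccl4 at 33.8 ± 35.8 TPM through Lta (15.7 ± 8.62), Ccl3 (13.4 ± 9.18) and Ifng (10.5 ± 5.61) to Tnf at 8.62 ± 2.495 TPM, and neighbours in that order also overlapped. Il2 lay lower in every library, at 2.38 ± 0.545 and 1.62 ± 0.262 TPM, and Il10 was last, at 0.427 ± 0.398 and 0.0405 ± 0.0354 TPM. No range of Il2 overlapped with that of Tnf, Ifng or Il10. The 2 members at the top of the order, Ltb and Ccl5, were those without a pentamer in the 3′ UTR, whereas Il2 and Il10, at the bottom, had 12.05 and 8.50 pentamers per 1000 bases. The members between these ends did not follow the density in order. Ccl3, the densest at 12.2, lay in the middle tier, and Xcl1, at 7.09, came directly after Ccl5. Il10, the lowest in level, was less dense than Tnf (10.5) and Ifng (9.51). This is a description over 10 genes.

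**Figure D1:**
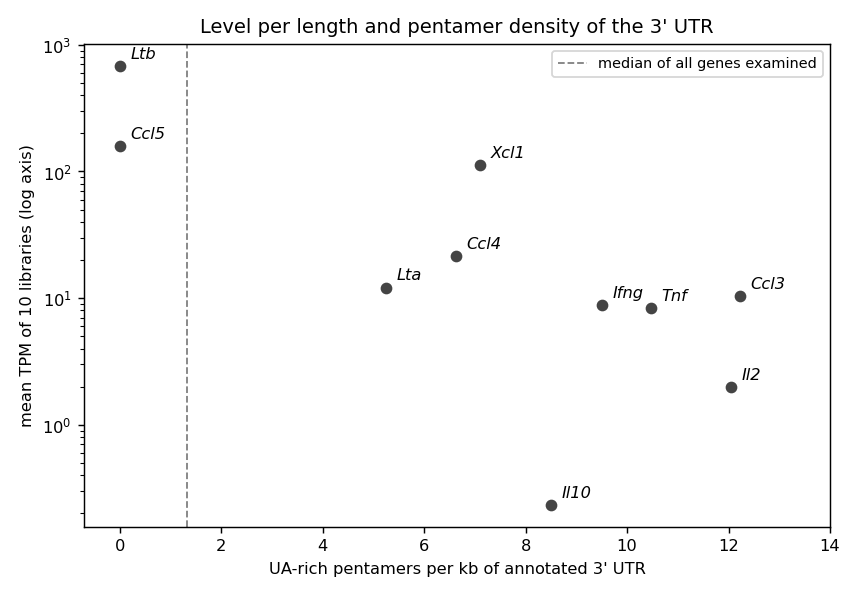
Each point is 1 of the 10 genes, with the density of the ATTTA pentamer in its 3′ UTR on the x axis (per 1000 bases), its mean TPM over the 10 libraries on a log y axis, and the median density of 14698 genes as a dashed line. Ltb and Ccl5 sit at a density of 0 and at the top, and the other 8 sit to the right of the dashed line.

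To ask whether costimulation changed the members, edgeR's quasi-likelihood test was applied to 24262 genes, Ag+Costim over Ag. All 10 members passed the filter on low counts. After Benjamini-Hochberg (BH) adjustment 0 members and 0 genes passed 0.05, a background of 0%. At an unadjusted p under 0.05, 4 members (Lta, Ccl4, Xcl1 and Il10) were lower in Ag+Costim, where 2586 genes (10.7%) were, and 0 were higher, where 1915 genes (7.89%) were. DESeq2 called 8046 genes in all and 3 members. Of the 10 members 9 had a negative log2 fold change. The median of the members was -0.52, against -0.32 for all genes tested, 62.3% of which were also below 0. No member separated the groups without overlap, while 5.6% of the genes tested did. Each member is described below by its role, in CPM (counts scaled to a common total with TMM factors), a scale on which a gene is compared between libraries and not with other genes.

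The lymphotoxins and TNF come first. Ltb, the membrane anchor that joins lymphotoxin alpha in a heterotrimer, held 771, 414, 306, 762 and 443 CPM in Ag replicates 1 to 5 and 378, 400.3, 516, 300.0 and 333 CPM in Ag+Costim replicates 1 to 5. Replicates 1 and 4 of Ag stood above all 8 other libraries, and the other Ag libraries lay among those of Ag+Costim. The log2 fold change was -0.48 (SE 0.28, edgeR BH 0.316).

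Lta, which also acts as a soluble homotrimer through the TNF receptors, held 15.6, 6.84, 7.89, 17.0 and 12.4 CPM in Ag and 7.69, 6.10, 9.75, 8.27 and 6.64 CPM in Ag+Costim. Again Ag replicates 1 and 4 were the highest of all, and Ag replicate 5 came next. Its log2 fold change was -0.64 (SE 0.27, edgeR BH 0.266).

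Tnf, a main inflammatory cytokine, had the smallest fold change of the members. It held 7.90, 8.95, 5.36, 9.49 and 9.12 CPM in Ag and 9.61, 8.29, 10.7, 7.96 and 6.39 CPM in Ag+Costim. The log2 fold change of 0.07 (SE 0.20, edgeR BH 0.831) was within the spread of either group, and its sign depended on the scaling, with -0.06 under DESeq2 size factors and -0.19 with total counts. Although Tnf and Lta are neighbours, the count of Lta was 1.98 and 1.79 times that of Tnf in Ag replicates 1 and 4, and between 0.736 and 1.04 times in Ag+Costim. In Ag replicates 2, 3 and 5 this ratio, which does not depend on the scaling, was 0.764, 1.47 and 1.37.

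Among the other cytokines, Ifng, which encodes interferon gamma, held 7.30, 4.08, 4.22, 10.99 and 9.03 CPM in Ag and 5.11, 4.55, 6.66, 5.57 and 6.23 CPM in Ag+Costim. The Ag libraries fell on both sides of Ag+Costim, with 2 below all of it and 3 above. Between the groups the log2 fold change was -0.34 (SE 0.29, edgeR BH 0.469).

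Il2, the T cell growth factor, was low, at 1.04, 1.77, 1.34, 1.87 and 2.03 CPM in Ag and 1.14, 1.25, 1.49, 1.23 and 0.934 CPM in Ag+Costim. Ag replicates 2, 4 and 5 lay above all of Ag+Costim, and Ag replicate 1 lay near its lower end. Its fitted log2 fold change was -0.42 (SE 0.36, edgeR BH 0.471). With levels scaled by total counts alone, Il2 was the single member whose groups did not overlap, and it was then lower in Ag+Costim (log2 fold change -0.65), as were 1.78% of the genes tested without overlap under that scaling.

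Il10, an anti-inflammatory cytokine, was near the limit of detection. It held 69, 256, 42, 15 and 38 counts in Ag and 0, 12, 47, 17 and 7 counts in Ag+Costim, which are 0.152, 0.805, 0.590, 0.0463 and 0.102 CPM against 0, 0.0285, 0.0804, 0.0465 and 0.0188 CPM. The 0 in Ag+Costim replicate 1 allows a level of up to 0.00969 CPM (3 counts). Ag replicates 2 and 3 carried most of the Ag level, while Ag replicate 4 lay within the range of Ag+Costim. The fitted log2 fold change was -3.26 (SE 1.31, edgeR BH 0.259), the largest in size of the 10. At such counts it depended on the libraries used, from -2.60 without Ag replicate 2 to -3.81 without Ag+Costim replicate 3. Without Ag replicate 4 every Ag library was above every Ag+Costim library, which held for 1.52% of the genes tested. In Ag replicate 2, the library with the most Il10, B cell markers summed to 18.5 CPM, myeloid markers to 74.1 CPM and dendritic markers to 1.32 CPM. None of these was above the range of Ag+Costim, but NK markers, at 2.91 CPM, were above its range of 0.551 to 2.399 CPM. In Ag replicate 3, B cell markers summed to 304 CPM, dendritic markers to 21.9 CPM and NK markers to 23.6 CPM, all above the range of Ag+Costim, and myeloid markers to 149 CPM, within it. The part of such cells in the Il10 level was not tested.

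**Figure D2:**
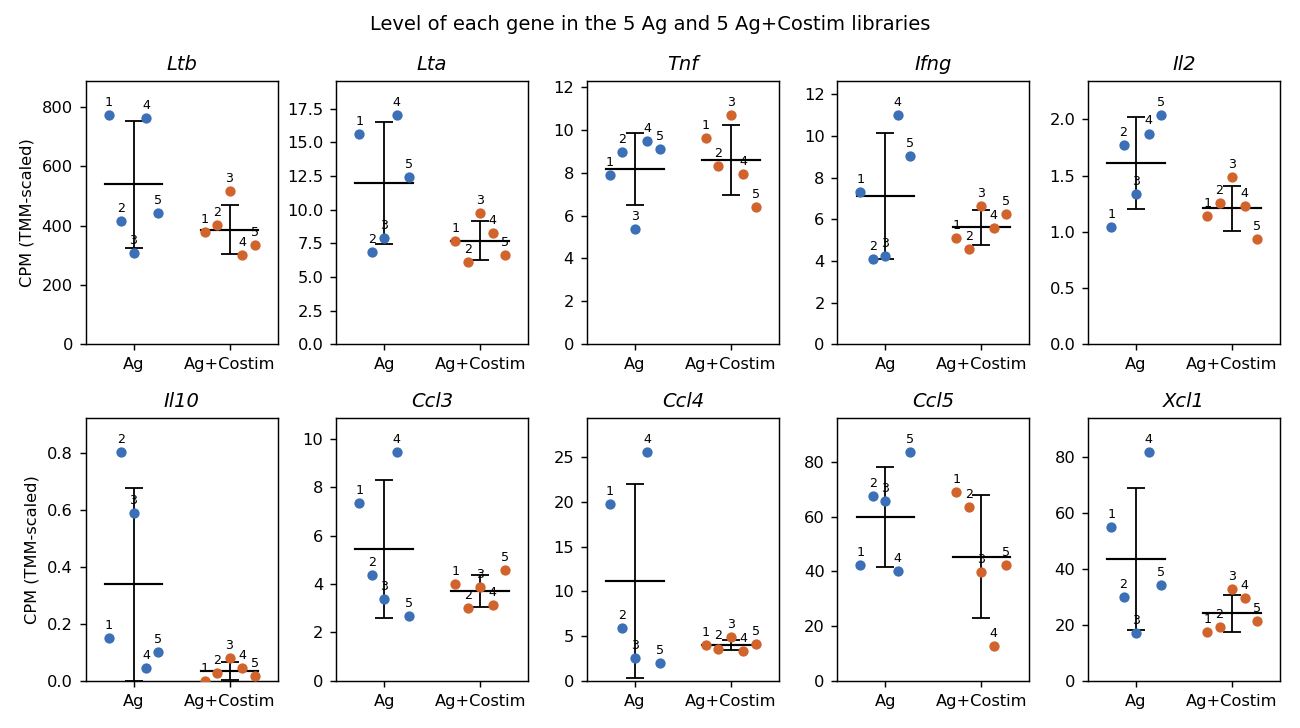
Each panel plots 1 gene, with CPM on a linear y axis from 0, 1 point per library labelled with its replicate number, a black line at the group mean and bars of 1 SD (n = 5 per group). Ag replicates 1 and 4 stand above the other libraries for Ltb, Lta, Ccl3, Ccl4 and Xcl1, and Ccl5 is lowest in Ag+Costim replicate 4.

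The chemokines follow. Ccl4, an inflammatory CC chemokine, held 19.7, 5.95, 2.57, 25.6 and 2.01 CPM in Ag and 4.02, 3.62, 4.87, 3.38 and 4.07 CPM in Ag+Costim. Ag replicates 1, 2 and 4 lay above every Ag+Costim library, replicate 2 by much less than the others, and Ag replicates 3 and 5 lay below. The 12.7-fold range within Ag thus contained the 1.44-fold range of Ag+Costim. The log2 fold change was -1.48 (SE 0.64, edgeR BH 0.267).

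Ccl3, a ligand of Ccr1 and the neighbour of Ccl4, held 7.34, 4.35, 3.39, 9.45 and 2.69 CPM in Ag and 4.02, 3.00, 3.88, 3.14 and 4.59 CPM in Ag+Costim. Ag replicates 1 and 4 were the highest, as for Ccl4, by a smaller factor. Its log2 fold change was -0.55 (SE 0.35, edgeR BH 0.349). The ratio of Ccl4 to Ccl3 counts was 2.69 and 2.71 in Ag replicates 1 and 4, and between 0.747 and 1.37 in the other 8 libraries.

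Xcl1, the ligand of Xcr1 on cross-presenting dendritic cells, held 54.9, 29.9, 17.0, 81.8 and 34.3 CPM in Ag and 17.5, 19.3, 32.8, 29.6 and 21.3 CPM in Ag+Costim. Ag replicate 3 was the lowest of all 10 libraries and Ag replicates 4 and 1 were the highest. Ag+Costim over Ag, its log2 fold change was -0.85 (SE 0.38, edgeR BH 0.268).

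Ccl5, a ligand of Ccr1 and Ccr3 that is typical of effector and memory CD8+ T cells, followed another order. It held 42.5, 67.5, 65.8, 40.1 and 83.6 CPM in Ag and 68.9, 63.5, 39.7, 12.6 and 42.5 CPM in Ag+Costim. Ag replicates 1 and 4 were the lowest of their group, and Ag+Costim replicate 4 lay far below all other libraries. Between groups this gave a log2 fold change of -0.40 (SE 0.39, edgeR BH 0.525). Of the 10 members, Ccl5 alone spread more widely in Ag+Costim (SD of log2 CPM 0.961) than in Ag (0.455). For the members the median SD was 0.572 in Ag and 0.238 in Ag+Costim, and for the 13183 tested genes at 1 CPM or more it was 0.525 and 0.148, with 95.6% of those genes wider in Ag.

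Several pairs of members thus rose and fell together across libraries. Over the 10 libraries, Pearson's r of log2 CPM was 0.96 for Ccl3 and Ccl4, 0.88 for Lta and Xcl1, 0.86 for Ltb and Xcl1, 0.86 for Ltb and Ccl4, and 0.86 for Ifng and Lta, while Ccl5 had r of -0.26 with Xcl1 and -0.18 with Ccl4. Points share their library and its depth, and part of the pattern rests on Ag replicates 1 and 4. Without them r was 0.79 for Ifng and Lta, 0.78 for Ccl3 and Ccl4, 0.62 for Lta and Xcl1 and 0.52 for Ltb and Xcl1. For Ltb and Ccl4 it was then 0.27, and for Xcl1 and Ccl4 0.08, against 0.82 over the 10 libraries. For Lta it went from 0.68 to -0.54 with Ccl4 and from 0.65 to -0.48 with Ccl3. For Ccl3 and Ltb it went from 0.78 to -0.01, whereas for Tnf and Ltb it rose from 0.49 to 0.80. The share of all gene pairs that change in this way without Ag replicates 1 and 4 was not counted. In these 2 libraries Ccl4 was 4.94 and 6.41 times the mean of Ag+Costim, Xcl1 2.28 and 3.39 times, Ccl3 1.97 and 2.54 times, Lta 2.03 and 2.21 times and Ltb 2.00 and 1.98 times. Tnf was 0.921 and 1.11 times that mean and Ccl5 0.936 and 0.883 times. The same libraries had the highest CD4+ T cell marker sums, 18.0 and 26.3 CPM, against 3.15 to 8.77 CPM elsewhere. Their B cell sums were 116 and 146 CPM, against 304 CPM in Ag replicate 3 and 14.6 to 32.5 CPM elsewhere. The part of such cells in these levels was not tested.

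**Figure D3:**
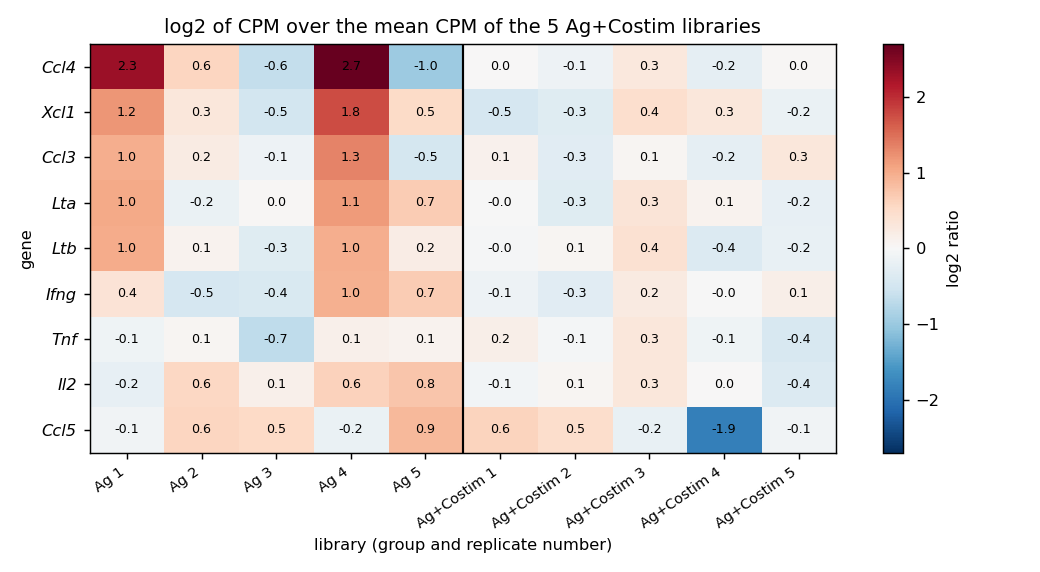
Rows are 9 of the genes and columns the 10 libraries, and each cell gives the log2 ratio of a library's CPM to the mean CPM of the 5 Ag+Costim libraries (red above, blue below; Il10 is left out because 1 library is at 0). The columns of Ag replicates 1 and 4 are red for Ccl4, Xcl1, Ccl3, Lta and Ltb and near 0 for Tnf and Ccl5.

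The fold changes depended on which Ag libraries entered. Without Ag replicates 1 and 4, left out after their levels had been seen, the log2 fold change was 0.20 for Ccl4 (SE 0.37), 0.11 for Ccl3 (SE 0.26), 0.00 for Ltb (SE 0.21), -0.16 for Xcl1 (SE 0.29) and -0.23 for Lta (SE 0.24). Since the libraries were picked by these genes, the smaller values follow in part from the choice. Without Ag replicates 2 and 5, those of the lowest quality weight, the log2 fold change of Ccl4 was -1.91 (SE 0.55, edgeR BH 0.0205). Of the 10 members 1 was past the threshold and lower in that fit, against 30.8% of the 33480 genes tested.

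The other tools gave more calls. DESeq2's Wald test called 3 members lower in Ag+Costim, Il10 (log2 fold change -3.37, adjusted p 0.0220), Ccl4 (-1.67, 0.0476) and Lta (-0.79, 0.0496), where 19.7% of the genes tested were lower past the same threshold. limma voom with quality weights, which weighed Ag replicates 1 and 4 most among the Ag libraries (weights 1.42 and 2.00, the others between 0.0656 and 0.508), called 6 members lower: Ccl4 (-2.24, BH 2.2e-04), Xcl1 (-1.44, BH 0.00146), Ccl3 (-1.07, BH 0.00190), Lta (-1.06, BH 6.8e-04), Ltb (-0.86, BH 0.00420) and Ifng (-0.65, BH 0.0221). In that fit 26.4% of all genes were lower. No tool called a member higher. Scaling moved the median of the 8620 genes at 10 CPM or more from 0.24 with TMM to 0.12 with DESeq2 size factors, 0.02 with the upper quartile and 0.01 with total counts. The fold changes of all 10 members lay below that median under each, but only 3 members reached 10 CPM. For all genes tested the median was -0.316, -0.479, -0.584 and -0.645 in the same order. Tnf lay above it under each scaling, Ifng (-0.644) and Ccl5 (-0.606) also did with total counts, and the other members lay below it.

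**Figure D4:**
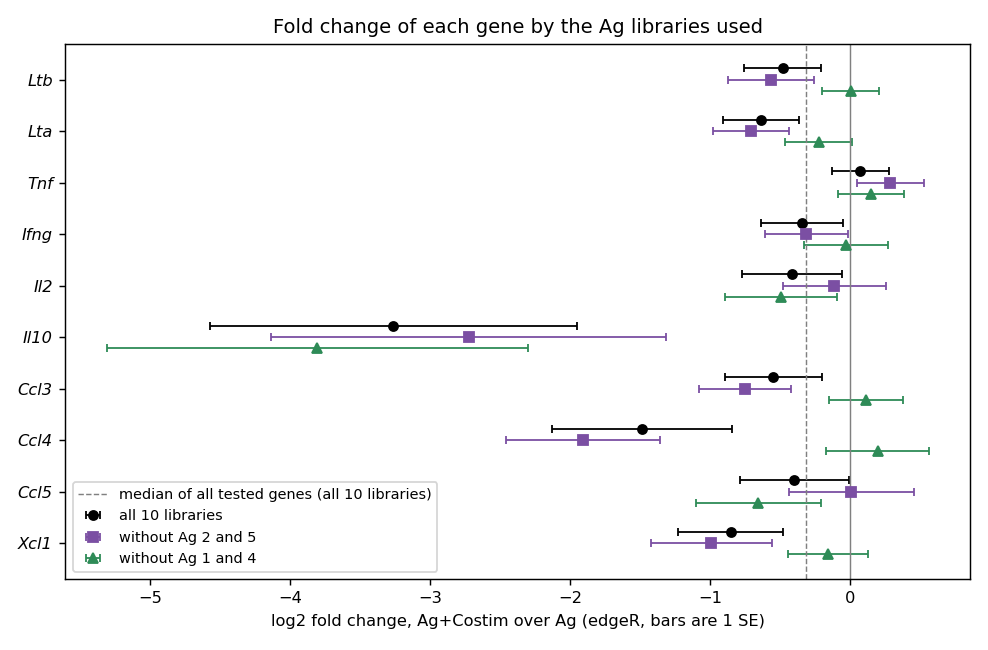
Points give the edgeR log2 fold change of each gene, Ag+Costim over Ag, with bars of 1 SE, from all 10 libraries (black), without Ag replicates 2 and 5 (purple) and without Ag replicates 1 and 4 (green), and the dashed line is the median of all tested genes. The green points of Ltb, Ccl3 and Ccl4 sit at or above 0, whereas the black and purple ones sit below it.

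Transcript isoforms showed little change in the members where a change could be seen. Il2, Il10, Lta, Ccl3, Ccl4 and Xcl1 have 1 annotated transcript each, so that usage could not be tested at any depth. Of the rest, only Ltb, with 3 annotated transcripts that had counts, and Ccl5, with 2, had enough counts to test. The coding transcript Ltb-201 held 86.4 ± 1.78% of the counts of Ltb in Ag and 88.0 ± 1.29% in Ag+Costim, the retained intron transcript Ltb-202 held 8.84 ± 2.16% and 6.50 ± 0.964%, and the coding transcript Ltb-203 held 4.76 ± 0.507% and 5.52 ± 0.807% (SD, n = 5 per group). The retained intron transcript Ccl5-202 held 0.831 ± 0.501% and 1.44 ± 0.868%. Neither gene was called for changed usage (edgeR diffSpliceDGE BH 1 for both), where 0.297% of 10441 genes were. Ifng-202, a retained intron transcript, held at most 0.522% of the Ifng counts in any library, and Tnf-202 held 0 counts in all.

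The authors' deposited splicing table, with 1 value per group and so no replicate check, lists 22 events in 9 members. None passed a probability over 0.9 with a difference of percent spliced in (PSI) over 0.05, where 1.05% of 138940 events did. The largest difference was 0.0185, at an exon of Il2 (chr3:37122990-37123136), where Ag had a PSI of 0.954 and Ag+Costim one of 0.936. All 13 core exons had a PSI of at least 0.936 in both groups. Tnf had 2 tandem 3′ ends, and the distal one (chr17:35199381-35199506) had a PSI of 0.874 for Ag and 0.858 for Ag+Costim. The AU-rich stretch of Tnf shown above lies upstream of that segment, so messages of either end contain it. Ltb had 2 tandem starts, and the downstream one (chr17:35194626-35194683) had a PSI of 0.9996 for Ag and 0.9997 for Ag+Costim. It lies downstream of the Ltb promoter stretch printed above.

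Receptors of the members were read from a list of 14 genes, of which all were tested and 0 passed BH adjustment. At an unadjusted p under 0.05 in edgeR, 2 were higher and 1 lower in Ag+Costim, where 7.89% and 10.7% of all genes tested were. Without overlap 2 were higher and 1 lower, where 5.6% of all genes tested had no overlap in either direction. The median log2 fold change was -0.03, against -0.32 for all genes tested. The 4 with the highest mean CPM were Il2rb, Il2rg, Ifngr1 and Tnfrsf1b. Il2rb, the signalling chain shared by the IL-2 and IL-15 receptors, averaged 905 ± 196 CPM in Ag against 1329 ± 81.1 CPM with costimulation (SD, n = 5 per group), without overlap, with a log2 fold change of 0.55 (SE 0.18, edgeR BH 0.227). Tnfrsf1b, a receptor of TNF and lymphotoxin alpha, was at 141 ± 28.7 and 209 ± 7.24 CPM, also without overlap, with a log2 fold change of 0.57 (SE 0.16, edgeR BH 0.201). Il2rg, the common gamma chain, was at 966 ± 218 and 967 ± 54.7 CPM, and Ifngr1 at 279 ± 117 and 341 ± 65.4 CPM, and both overlapped.

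A further 2 receptors are named after their values were seen. Ifngr2, the signalling chain of the interferon gamma receptor, was lower in Ag+Costim without overlap, at 5.84 ± 2.505 against 1.60 ± 0.452 CPM (log2 fold change -1.86, SE 0.35, edgeR BH 0.134). Il2ra, the high-affinity chain of the IL-2 receptor and a marker of activation, held 1.52, 34.3, 22.2, 2.11 and 37.4 CPM in Ag and 43.4, 48.3, 23.8, 85.4 and 52.8 CPM in Ag+Costim. Il2ra was lowest in Ag replicates 1 and 4, the libraries highest in Ccl3 and Ccl4.

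**Figure D5:**
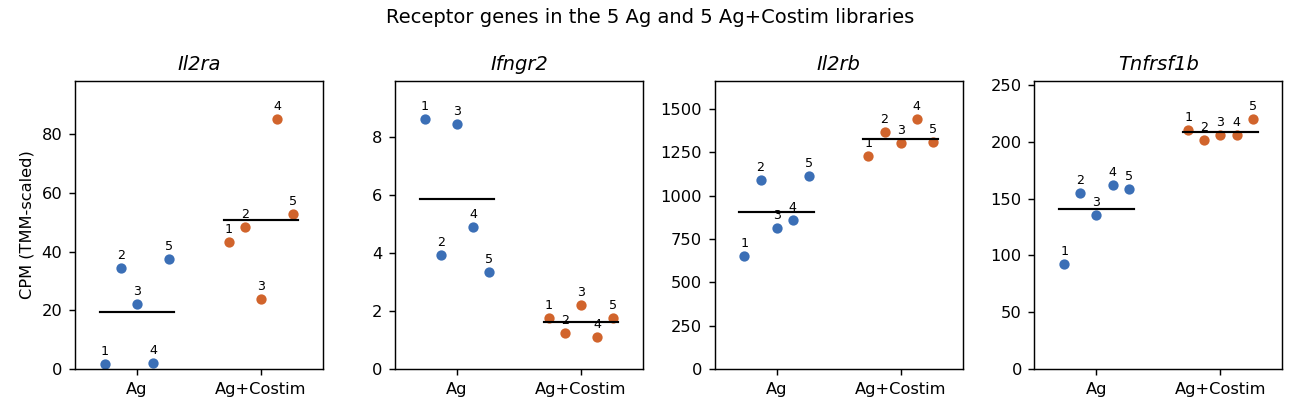
CPM of 4 receptor genes on linear axes from 0, 1 point per library labelled with its replicate number and a line at the group mean (n = 5 per group). Ag replicates 1 and 4 are at 1.52 and 2.11 CPM for Il2ra, and every Ag+Costim library lies above every Ag library for Il2rb and Tnfrsf1b and below every Ag library for Ifngr2.

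Other cytokine genes were counted in a list of 35, of which 26 were tested and 0 passed BH adjustment. Of these 1 was higher and 1 lower at an unadjusted p under 0.05 in edgeR, where 7.89% and 10.7% of all genes tested were. The groups did not overlap in 1, against 5.6% of all genes tested. The median log2 fold change was -0.22, against -0.32 for all genes tested. Tgfb1, which encodes an immunosuppressive cytokine, was higher in Ag+Costim without overlap, at 63.4 ± 7.81 against 108 ± 6.16 CPM (log2 fold change 0.76, SE 0.12, edgeR BH 0.117). Tnfsf8, the CD30 ligand, named after its values were seen, was at 62.7 and 73.5 CPM in Ag replicates 1 and 4 and between 7.92 and 17.7 CPM elsewhere (log2 fold change -1.60, SE 0.55, edgeR BH 0.239). Of the other 3 with the highest mean CPM, Mif was at 453 ± 321 and 559 ± 48.8 CPM, Il16 at 386 ± 125 and 306 ± 43.7 CPM, and Fasl, the death receptor ligand of cytotoxic cells, at 22.9 ± 13.3 and 27.0 ± 4.58 CPM, and all 3 overlapped. Among 28 other chemokine genes 19 were tested, 0 had an unadjusted p under 0.05 in edgeR and 0 passed BH adjustment, and the median was -0.30. The 4 with the highest mean CPM were Cklf (38.2 ± 6.52 and 35.3 ± 1.23 CPM), Ccl25 (4.85 ± 0.721 and 4.79 ± 0.553 CPM), Cxcl10 (2.61 ± 1.74 and 5.39 ± 1.71 CPM) and Ccl27a (3.27 ± 2.13 and 3.47 ± 0.467 CPM).

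The genes whose levels were most like those of a member were sought among 8620 genes at 10 CPM or more, for the 3 members at that level. Over the 10 libraries, Pearson's r of log2 CPM with Ltb was highest for Il16 (0.98) and Slfn2 (0.98). With Xcl1 it was highest for Itm2a (0.97) and Dapl1 (0.96). With Ccl5 it was highest for Ifngas1 (0.94), a long noncoding RNA gene near Ifng, and Acss2 (0.89). Itm2a stayed among the 2 most alike of Xcl1 by Spearman's rho (0.99) and without Ag replicates 2 and 5 (0.98) but not without Ag replicates 1 and 4, where Galm (0.92) and Slc25a44 (0.91) took the places. The pair of Ltb was replaced under each alternative.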

How the data were processed

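Poly(A) RNA of sorted CD8+ T cells was sequenced (SMART-Seq v4, Nextera XT). Per the labels, the authors used HISAT2 2.1.0, SAMtools 1.9 and StringTie 2.1.0 on mm10. The deposited gene and transcript tables hold expected counts (estimated from coverage, whole numbers, not normalized). The authors ran Whippet, and their deposited table holds PSI as a fraction per group and a probability score. Identifiers were those of GENCODE M21. Entries without one (26345, at most 0.308% of counts) were left out. Gene counts were tested with edgeR 4.0.16 in R 4.3.3 (quasi-likelihood test, filterByExpr, TMM, robust), limma 3.58.1 (voom, quality weights) and DESeq2 1.42.0 (Wald test), at a BH threshold of 0.05. Usage was tested with diffSpliceDGE, requiring a change of share over 0.1. Correlations used log2(CPM + 0.5). TPM came from transcript counts over length. Scripts were tested on simulated data. Depth and replicate number limit precision, and floors of 3 counts cover counting error only. Libraries of a group are biological replicates per the study, and p-values measure the spread between them. The 10 genes, the lists and the tests were chosen with earlier results of these data known. Named by rule were all 10 genes, the 4 most abundant of each list, any past the threshold, and the 2 genes most alike each member at 10 CPM or more. A further receptor gene is not reported here.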

Additional observations from a re-analysis of the deposited data

How the results depend on the processing

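The edgeR fit called 0 genes and 0 members with every scaling, with no filter, with unidentified entries kept, with the replicate block, without Ag replicates 1 and 4 (chosen after seeing the data) and without any 1 library (0 to 0). Without Ag replicates 2 and 5 it called 16322 genes and 1 member, DESeq2 called 8046 and 3, and limma voom with quality weights 12670 and 6. The cause of these differences was not tested. Same-numbered libraries did not deviate together (correlations from -0.289 to 0.169), so the numbers were not treated as pairs. Genes without overlap numbered 2763 with no filter, 17622 without Ag replicates 2 and 5, 2386 without Ag replicates 1 and 4, and 1429 to 3530 without 1 library (2435 without Ag replicate 2, 3530 without Ag replicate 5), against 1359. Members without overlap numbered 1 with total counts (Il2), 1 without Ag replicates 1 and 4 (Il10), and 0 to 1 without 1 library (Il10 without Ag replicate 4). Of 200 refitted fold changes of members, 11 changed sign. For Tnf (0.07) these were -0.0627 with DESeq2 size factors, -0.195 with total counts, -0.163 with the upper quartile, -0.0570 in DESeq2, -0.0344 in limma voom and -0.0435 without Ag replicate 3, in a range of -0.0435 to 0.180 without 1 library. Without Ag replicates 1 and 4, Ltb came to 0.0023, Ccl3 to 0.112 and Ccl4 to 0.197. Ccl5 came to 0.0075 without Ag replicates 2 and 5 and to 0.0377 in limma voom. Genes with changed usage numbered 145 in limma's diffSplice, 19 with at least 50 counts, 475 without Ag replicates 2 and 5, 30 with the replicate block and 33 to 92 without 1 library, against 31, with no member among them. The share of Ltb in the members' TPM stayed at 65.4% to 67.05%. At a probability over 0.95, 0 events of members passed. Depth limits Il10 most, with 83 counts in the 5 Ag+Costim libraries.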
